A study of Homo sapiens with 12 samples.

Results

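The ribosome biogenesis genes described here are 36 protein-coding genes whose products build ribosomes in the nucleolus, taken from a fixed list of gene symbols and matched by name to 36 of the 18650 coding genes in the deposited files. SLAM-seq, which marks new transcripts, gave their RNA levels in 12 libraries. The cells were 22Rv1, a prostate carcinoma line of human origin, gene-edited so that the splicing factor SF3B1 carries the substitution C1111S; all 4 groups share this genotype, and the labels do not say whether the line is 1 clone. Cells received the vehicle DMSO at 0.1%, the stereoprobe WX-02-23 at 20 µM, the stereoprobe WX-02-43 at 20 µM, or PladB (pladienolide B, an inhibitor of the SF3b complex that SF3B1 belongs to) at 10 nM, each compound for 3 h. All cells then received 100 µM 4-thiouridine for 1 h, which enters RNA made in that hour and, once alkylated, makes T positions appear as C in sequencing. T>C reads carry at least 1 such conversion and stand for newly made RNA, while all reads stand for total RNA. Each group had 3 libraries, and no label says that they came from separate cultures, so p-values measure the spread between these libraries.

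Ribosome biogenesis starts when RNA polymerase I transcribes the ribosomal RNA precursor. Small nucleolar ribonucleoproteins (snoRNPs) then guide its chemical modification, with box C/D particles adding methyl groups and box H/ACA particles making pseudouridine. The small subunit processome and the 60S assembly factors fold, cut and trim the precursor into the 2 ribosomal subunits. The pathway is a classical output of the transcription factor MYC and one of the largest energy costs of a growing cell. By role, the genes fall into 5 for RNA polymerase I and its factors, 3 for the box C/D core, 5 for the box H/ACA core and its chaperone, 2 for the abundant nucleolar proteins NCL and NPM1, 8 for the small subunit and 13 for the 60S subunit.

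Many promoters of the pathway hold the E-box CACGTG, the palindromic site that MYC and its partner MAX bind. RefSeq promoter windows (GRCh38.p14, 250 bases before to 50 bases after the start) were at hand for 29 of the 36 genes. The E-box was in 11 of these 29 windows (37.9%), against 8.88% of 15843 coding promoters of the same length. It was in 29.2% of 106 windows of other genes of the pathway and in 4.69% of 64 windows of cytosolic ribosomal protein genes. The genes with the site were EBNA1BP2, FBL, MRTO4, NOP10, NOP14, NOP2, PES1, RRP9, UTP20, UTP4 and WDR43. The windows below are the E-box, in capitals, and its flanks in the 4 of these genes whose total RNA changed after PladB.
FBL, chr19:39846356-39846385, minus strand: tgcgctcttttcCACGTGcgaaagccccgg
WDR43, chr2:28894658-28894687, plus strand: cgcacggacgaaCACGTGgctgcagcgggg
NOP2, chr12:6568242-6568268, minus strand: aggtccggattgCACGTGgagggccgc
UTP4, chr16:69132621-69132650, plus strand: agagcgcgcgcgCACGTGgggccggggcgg
FBL rose after PladB while the other 3 fell, so the letters CACGTG were present in genes that moved in both directions. The ETS core CCGGAA, searched on both strands, was in 41.4% of the 29 windows and 22.9% of all windows, but in 65.1% of the windows of other genes of the pathway and 54.7% of those of ribosomal protein genes. The CCAAT box, also on both strands, was in 41.4% against 36.4% of all windows, 34.0% of other genes of the pathway and 32.8% of ribosomal protein genes. These are matches of letters, not measured binding.

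Library totals ran from 24670716 to 42190854 reads, with 12333255 to 21417549 reads and 826774 to 2094424 T>C reads on coding genes. T>C reads made up 9.45% ± 0.43 of coding reads in DMSO (SD, n = 3), 9.64% ± 0.217 after WX-02-23, 9.10% ± 0.277 after WX-02-43 and 5.44% ± 0.191 after PladB. Conversions per covered T position were 0.706% ± 0.0245 in DMSO and 0.811% ± 0.0156 after WX-02-23. They were 0.913% ± 0.0364 after WX-02-43 and 0.318% ± 0.00897 after PladB. No groups overlapped in this rate, and its part in the results was not tested. The prostate luminal genes FOXA1, HOXB13, KRT8 and KRT18 were present in every library, and KLK3 was low at 4.23 to 17.5 CPM (counts scaled to a common library size). CD3E, COL1A2, VWF, DES, KRT5 and TP63, which define other cell types, had 0 reads in all 12 libraries. Other markers of the same list had reads: COL1A1 stood at 2.14 to 10.8 CPM, ACTA2 at 2.61 to 18.4 CPM and CHGA at 0 to 7.94 CPM. PTPRC and PECAM1 had 14 and 20 reads over all libraries. The summed level of 12 markers of other cell types was 33.1 to 47.7 CPM in DMSO, 33.1 to 67.0 CPM after WX-02-23, 32.5 to 56.4 CPM after WX-02-43 and 45.9 to 63.9 CPM after PladB, with SYP at 17.1 to 43.2 CPM. The summed level of 10 luminal markers was 3351 to 3612 CPM in DMSO, 2681 to 3044 CPM after WX-02-23, 2893 to 2998 CPM after WX-02-43 and 3922 to 4133 CPM after PladB, so it differed from DMSO without overlap in all 3 groups; its part in the results was not tested. In bulk samples fewer cells and less RNA per cell cannot be told apart.

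All 36 genes passed the filters on low counts in every readout. A call is an adjusted p under 0.05 in edgeR's quasi-likelihood test over all coding genes, with Benjamini-Hochberg adjustment. Levels are CPM with library sizes adjusted by the trimmed mean of M values (TMM), and changes are log2 differences with their standard error (SE).

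PladB changed the total RNA of 17 of the 36 genes, 5 upward and 12 downward, where 30.1% of 13178 genes were called (13.9% higher and 16.3% lower). By role, 4 of 5 RNA polymerase I genes fell, 3 of 8 small subunit genes, and 5 of 13 genes of the 60S subunit. The snoRNP cores and the abundant nucleolar proteins held 3 of the 5 genes that rose, namely FBL, NHP2 and NPM1, and no gene that fell. The median change was -0.20 over the 36 genes and -0.07 over all genes tested. PladB and DMSO libraries did not overlap in 7 genes that were higher and 14 that were lower, against 40.9% of all genes. No gene of the 36 was called after either stereoprobe.

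**Figure D1:**
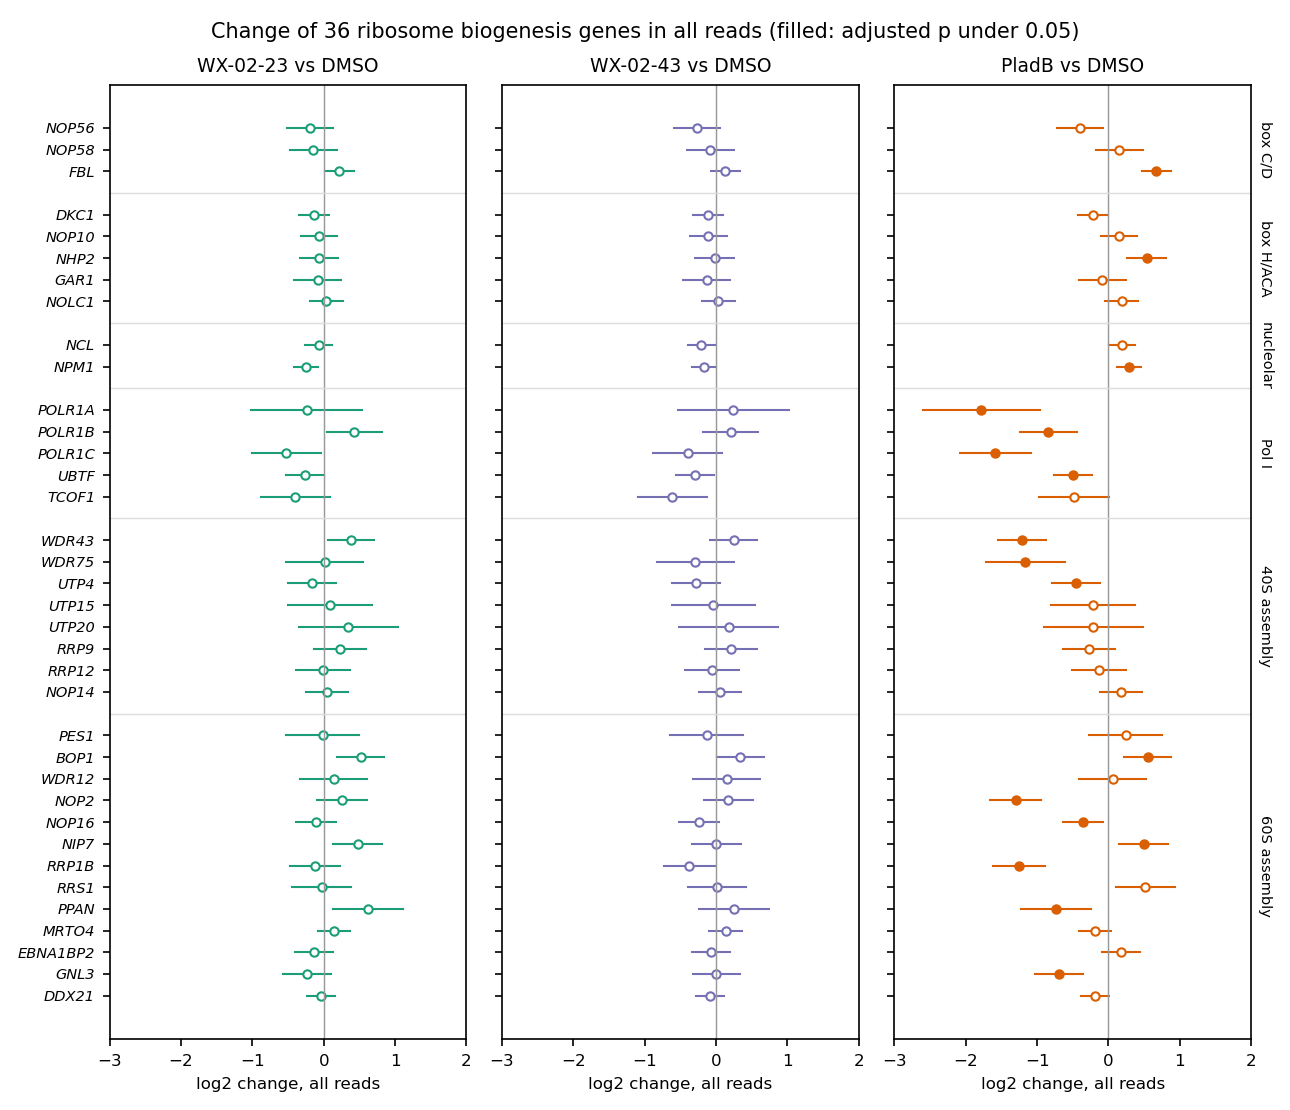
Log2 change of all reads against DMSO (x axis) for each of the 36 genes (y axis, by role) after WX-02-23, WX-02-43 and PladB; points are estimates, bars 95% intervals, filled points adjusted p under 0.05. Filled points occur in the PladB panel alone, 5 to the right of 0 and 12 to the left.

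RNA polymerase I and its factors had the lowest median of the 6 role groups, -0.84. POLR1A, the largest catalytic subunit, stood at 24.4, 25.3 and 6.38 CPM in DMSO and at 7.52, 5.89 and 2.84 CPM after PladB. The third DMSO library lay between PladB libraries, so the groups overlapped. The fall was 1.78 on the log2 scale (SE 0.40, adjusted p = 0.00062), and it ranged from -2.19 to -1.49 when single libraries were left out. POLR1C, a subunit shared by RNA polymerases I and III, stood at 48.0, 47.3 and 45.7 CPM in DMSO and at 13.9, 12.5 and 20.5 CPM after PladB, a fall by 1.59 (SE 0.25, adjusted p = 2.7e-06). Every PladB library was far below every DMSO library. POLR1B, the second catalytic subunit, stood at 45.7, 50.8 and 58.3 CPM in DMSO and at 26.2, 37.9 and 22.3 CPM after PladB, without overlap (log2 -0.84, SE 0.20, adjusted p = 0.00083).

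UBTF, the factor that bends ribosomal DNA and recruits the polymerase, was lower in both total and new RNA. In all reads it stood at 142, 155 and 138 CPM in DMSO and at 111, 94.2 and 104 CPM after PladB (log2 -0.49, SE 0.13, adjusted p = 0.0038). Its T>C reads numbered 229, 266 and 169 in DMSO and 42, 50 and 11 after PladB. Scaled to T>C depth these were 132, 186 and 105 CPM against 41.6, 66.8 and 15.2 CPM, without overlap. On the T>C scale this was a fall by 1.77 (SE 0.54, adjusted p = 0.027). This T>C call was lost when any of 4 single libraries was left out, with adjusted p of 0.057 without DMSO replicate 1, 0.14 without DMSO replicate 2, 0.052 without PladB replicate 1 and 0.11 without PladB replicate 3. Its 3′ UTR interval is chr17:42282401-42284609 (hg19, minus strand). TCOF1, treacle, which recruits polymerase I to its genes, was not called (log2 -0.48, SE 0.24, adjusted p = 0.13).

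**Figure D2:**
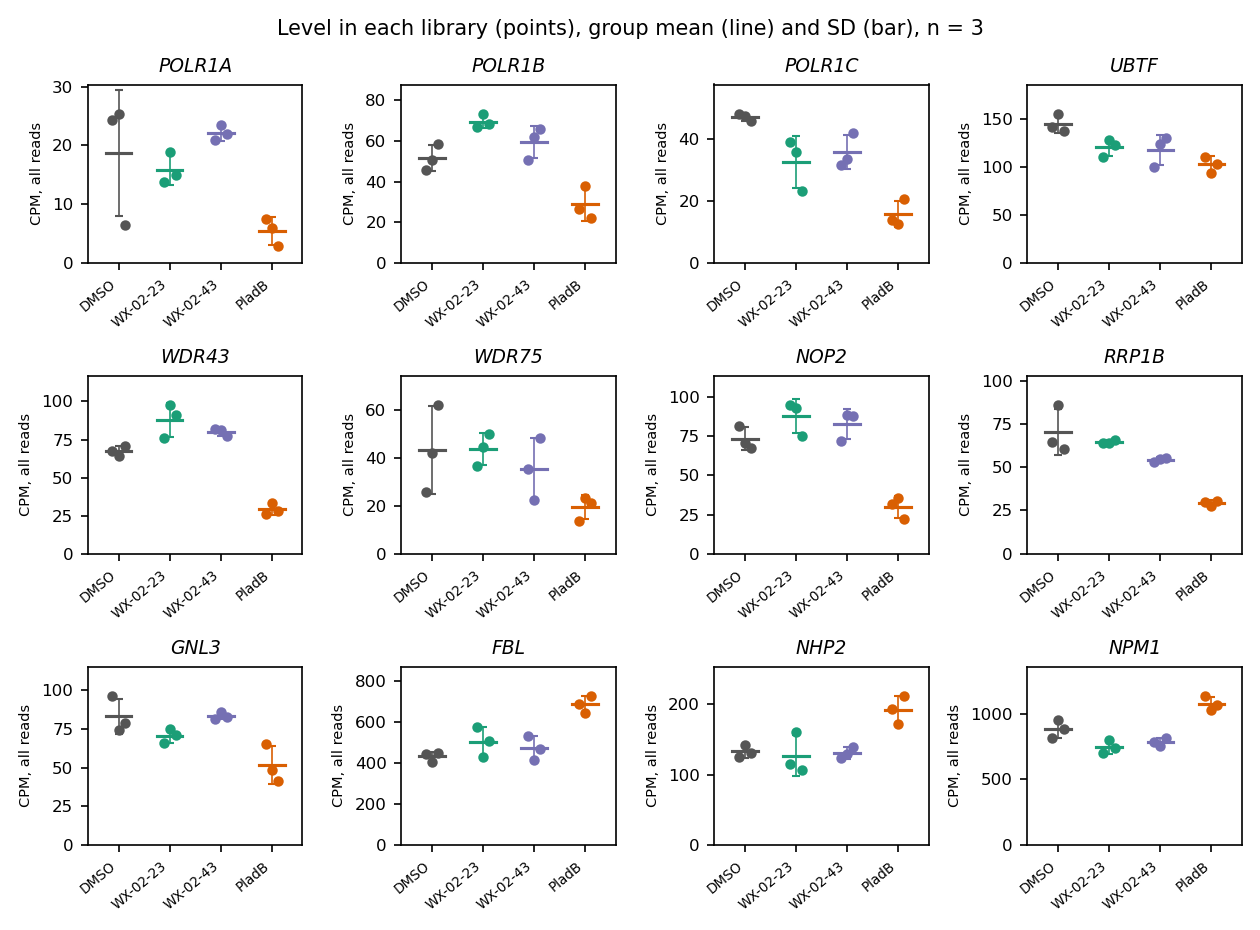
Level in CPM of all reads (y axis, from 0) of 12 of the 17 called genes in each library (points) by group (x axis), with the group mean (line) and SD (bar), n = 3. WDR43, NOP2 and RRP1B show PladB libraries well below all others, POLR1C has its highest PladB library (20.5) close to its lowest WX-02-23 library (23.1), and FBL shows PladB libraries above all others.

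In the small subunit processome, the large particle that forms on the precursor while it is transcribed, WDR43, WDR75 and UTP4 fell, and all 3 are subunits of its first building block, UTP-A. WDR43 stood at 67.2, 64.3 and 70.7 CPM in DMSO and at 25.8, 33.3 and 28.0 CPM after PladB (log2 -1.22, SE 0.17, adjusted p = 3e-07). WDR75 stood at 25.7, 42.2 and 62.0 CPM in DMSO, a wide spread, and at 13.7, 23.3 and 21.0 CPM after PladB (log2 -1.17, SE 0.27, adjusted p = 0.00092). Its groups did not overlap, although the lowest DMSO library was close to the highest PladB library. UTP4 fell less (log2 -0.45, SE 0.17, adjusted p = 0.035), and it no longer passed without DMSO replicate 2 (log2 -0.27, adjusted p = 0.28), without PladB replicate 2 (adjusted p = 0.076) and without PladB replicate 3 (adjusted p = 0.13).

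A further member of UTP-A, UTP15, was not called (log2 -0.22, 95% interval -0.80 to 0.37). The other small subunit genes were also not called. They were RRP9, a U3 snoRNA-bound protein, at -0.27, UTP20 at -0.21, RRP12, which acts in export of the 40S precursor, at -0.13, and NOP14 at 0.18. NOP14, which took the most reads of this group, stood at 102, 93.1 and 128 CPM in DMSO and at 132, 130 and 105 CPM after PladB, with overlapping groups.

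Among the 60S assembly genes the largest falls were in NOP2 and RRP1B. NOP2, the methyltransferase that modifies a cytosine of 28S rRNA, stood at 81.7, 70.9 and 67.6 CPM in DMSO and at 31.8, 35.4 and 22.1 CPM after PladB (log2 -1.30, SE 0.18, adjusted p = 2.6e-07). RRP1B, a nucleolar rRNA-processing protein, stood at 64.6, 85.9 and 60.7 CPM in DMSO and at 30.1, 27.6 and 30.5 CPM after PladB (log2 -1.26, SE 0.18, adjusted p = 6.8e-07). In both genes every PladB library was far below every DMSO library, and the PladB libraries of RRP1B were close to each other.

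RRP1B almost vanished from the newly made RNA. Its T>C reads numbered 86, 172 and 42 in DMSO, 94, 89 and 108 after WX-02-23, 32, 83 and 106 after WX-02-43, and 0, 1 and 2 after PladB. The T>C rate in DMSO was 52.0 times that after PladB, with a 95% interval of 17.6 to 254 that covers counting error only. The adjusted p was 0.00067 in the fit to all genes, and the call held in each of 6 fits that left out 1 library. The interval counted is chr21:45113265-45115960 (hg19, plus strand), 2696 bases of 3′ UTR, and 0.284% of its reads mapped to more than 1 place.

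GNL3 (nucleostemin, a GTPase of the nucleolus) fell as well, from 96.3, 74.5 and 79.0 CPM in DMSO to 65.4, 48.3 and 41.0 CPM (log2 -0.69, SE 0.17, adjusted p = 0.0014). Of its reads 69.4% mapped to more than 1 place, and its interval overlaps that of GLT8D1 on the other strand, so its level is uncertain. PPAN (log2 -0.73, SE 0.25, adjusted p = 0.019) and NOP16 (log2 -0.36, SE 0.14, adjusted p = 0.046) were the other genes that fell. PPAN no longer passed without DMSO replicate 3 (log2 -0.68, adjusted p = 0.062), PladB replicate 1 (-0.63, 0.094) or PladB replicate 3 (-0.65, 0.079). NOP16 no longer passed without DMSO replicate 1 (-0.36, adjusted p = 0.084), DMSO replicate 2 (-0.32, 0.11), PladB replicate 1 (-0.33, 0.12) or PladB replicate 2 (-0.31, 0.14).

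NIP7 and BOP1 rose among the 60S genes. NIP7, which binds pre-60S particles, stood at 60.5, 49.7 and 54.8 CPM in DMSO and at 74.1, 86.2 and 71.9 CPM after PladB (log2 0.49, SE 0.17, adjusted p = 0.025). It no longer passed without DMSO replicate 2 (0.42, adjusted p = 0.093), DMSO replicate 3 (0.49, 0.058) or PladB replicate 2 (0.40, 0.12). BOP1, a subunit of the PeBoW complex that processes the 32S precursor, was called higher (log2 0.55, SE 0.16, adjusted p = 0.0084) but not without DMSO replicate 3 (0.45, adjusted p = 0.061), and 99.97% of its reads mapped to more than 1 place. Its PeBoW partners PES1 (0.24, 95% interval -0.27 to 0.75) and WDR12 (0.06, -0.41 to 0.53) were not called. RRS1, which acts in assembly of the 5S particle into the 60S precursor, missed the threshold at 0.51 (SE 0.20, adjusted p = 0.053), with DMSO libraries at 30.0, 40.9 and 44.2 CPM and PladB libraries at 54.6, 57.2 and 52.4 CPM. DDX21, the RNA helicase that took the most reads of the 60S group, stood at 476, 530 and 472 CPM in DMSO and at 406, 422 and 465 CPM after PladB (log2 -0.19, SE 0.10, adjusted p = 0.13). MRTO4 (-0.19) and EBNA1BP2 (0.17) were not called either.

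The snoRNP enzymes moved the other way or were not called. FBL (fibrillarin), the box C/D methyltransferase, stood at 442, 403 and 446 CPM in DMSO and rose to 684, 643 and 724 CPM after PladB, with every PladB library above all 9 others. The change was 0.67 (SE 0.10, adjusted p = 1.9e-06), and it stayed between 0.62 and 0.71 when single libraries were left out. The FBL interval is chr19:40325093-40325177 (hg19, minus strand), 85 bases. Its partners in the box C/D core, NOP56 (-0.40, 95% interval -0.72 to -0.08, adjusted p = 0.052) and NOP58 (0.15, -0.18 to 0.48), were not called.

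In the box H/ACA core, NHP2, an RNA-binding subunit, stood at 126, 143 and 130 CPM in DMSO and at 194, 172 and 212 CPM after PladB (log2 0.53, SE 0.13, adjusted p = 0.0019). The pseudouridine synthase DKC1 (dyskerin), the partner of NHP2, stood at 263, 270 and 254 CPM in DMSO and at 210, 241 and 227 CPM after PladB; these groups did not overlap either, but the fall missed the threshold (log2 -0.21, SE 0.11, adjusted p = 0.12). NOP10 (0.15), GAR1 (-0.09) and the chaperone NOLC1 (0.19) were not called.

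NPM1 (nucleophosmin), which took more reads than any other gene of the 36, stood at 810, 948 and 882 CPM in DMSO and at 1132, 1025 and 1067 CPM after PladB (log2 0.29, SE 0.08, adjusted p = 0.0061). It no longer passed without DMSO replicate 1 (0.22, adjusted p = 0.064) or PladB replicate 1 (0.24, adjusted p = 0.055). NPM1 has separate 3′ ends in the files, the upstream one at chr5:170833410-170833731 and the downstream one at chr5:170837570-170837888 (hg19). The upstream end held 24.3% to 28.1% of NPM1 reads in DMSO, 26.2% to 29.8% after WX-02-23, 22.5% to 28.5% after WX-02-43 and 28.4% to 30.8% after PladB. The upstream end rose 1.39-fold after PladB and the downstream end, of whose reads 33.2% mapped to more than 1 place, 1.16-fold; the difference between the ends was not tested. NCL (nucleolin) stood at 507, 550 and 540 CPM in DMSO and at 599, 605 and 622 CPM after PladB (log2 0.19, SE 0.09, adjusted p = 0.11).

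Newly made RNA gave fewer calls. On T>C reads scaled to T>C reads, 2 of the 36 genes fell after PladB, RRP1B and UBTF, and none rose, where 10.6% of 10722 genes were called (4.72% higher and 5.9% lower). The median change was -0.30 over the 36 genes and -0.36 over all genes, and libraries did not overlap in 10 of the 36 genes against 27.9% of all genes. The genes with the highest estimates were NHP2 at 1.30 (adjusted p = 0.15), EBNA1BP2 at 1.06 (0.23), RRS1 at 1.05 (0.07), PPAN at 1.00 (0.40) and NIP7 at 0.87 (0.069). The lowest estimates that were not called were PES1 at -3.42, UTP4 at -1.84, RRP12 at -1.47, WDR75 at -1.36 and POLR1A at -1.33. These rest on few T>C reads. After PladB the counts were 7, 0 and 0 for PES1 and 0, 2 and 22 for UTP4. For RRP12 they were 8, 0 and 15, and for WDR75 21, 0 and 5. POLR1A had 1, 76 and 0 in DMSO and 0, 16 and 0 after PladB. Its estimate thus rests almost wholly on 1 library per group. The T>C counts of RRS1 were 166, 222 and 210 in DMSO and 269, 210 and 176 after PladB, which at the lower T>C depth of the PladB libraries were 95.6, 155 and 131 CPM against 267, 281 and 243 CPM. Scaled to all reads instead, the median of all genes was -1.15, each of the 36 changes was lower by 0.73 to 0.83, 5 of the 36 in place of 15 were above 0, and 10 were called, all lower. With that scaling the share of higher genes among all calls was 4.6%, against 44.4%.

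The labelled share, the percentage of a gene's reads that carry T>C, separates new from older RNA without scaling to other genes. In DMSO it ran from 1.69% for BOP1 to 31.3% for RRS1, with a median of 9.26%, close to the median of 9.10% over 10020 genes. The cytosolic ribosomal protein genes, which code for the parts that these factors assemble, had a median of 2.69%. RRS1 (31.3%), NIP7 (27.7%) and POLR1C (20.1%) had the highest shares, and BOP1, RRP9 (3.41%), FBL (3.55%) and UTP4 (3.90%) the lowest. These are descriptions over the 3 pooled DMSO libraries. A read can carry T>C only where it covers a T, and the share was not corrected for the T content of the interval. The intervals of BOP1, RRP9, FBL and UTP4 hold 29, 30, 29 and 33 T positions, against 160 in RRS1, 475 in NIP7 and 70 in POLR1C. NOP56, with 21, had a share of 9.85%. The part of T content in differences between genes was not tested.

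After PladB the labelled share fell in 8 of the 36 genes and rose in none, where 11.9% of 10020 genes were called (11.8% lower and 0.0299% higher). Libraries did not overlap in 17 of the 36 genes, against 34.7% of all genes. The median change in log2 odds was -0.98 over the 36 genes and -1.26 over all genes. FBL went from 3.77%, 2.78% and 3.97% in DMSO to 1.17%, 1.70% and 0.693% (log2 odds -1.66, SE 0.34, adjusted p = 0.0082), while its total RNA rose. NPM1 went from 4.82%, 4.30% and 4.68% to 1.81%, 1.62% and 1.88% (log2 odds -1.42, SE 0.22, adjusted p = 0.0016), also with more total RNA. NCL went from 11.0%, 7.64% and 9.41% to 5.12%, 4.26% and 4.63% (log2 odds -1.06, SE 0.20, adjusted p = 0.0049). In all 3 genes the groups were apart.

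UBTF went from 9.10%, 11.0% and 7.31% to 2.11%, 3.91% and 0.772% (log2 odds -2.30, SE 0.53, adjusted p = 0.014, but 0.0501 without DMSO replicate 2). RRP1B went from 7.48%, 12.8% and 4.13% to 0%, 0.267% and 0.477% (adjusted p = 0.0049). PES1 went from 8.05%, 4.62% and 4.24% to 0.629%, 0% and 0%, resting on 7 T>C reads in PladB replicate 1 and none in the other PladB libraries (adjusted p = 0.0094). The change of PES1 was -4.87 in log2 odds, and -8.44 without that library, when all PladB T>C counts were 0. MRTO4, a ribosome assembly factor related to the stalk protein P0, fell by 1.35 in log2 odds (adjusted p = 0.018, but 0.077 without DMSO replicate 1 and 0.064 without DMSO replicate 3). DDX21 fell by 0.97 (adjusted p = 0.012, but 0.053 without DMSO replicate 1).

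**Figure D3:**
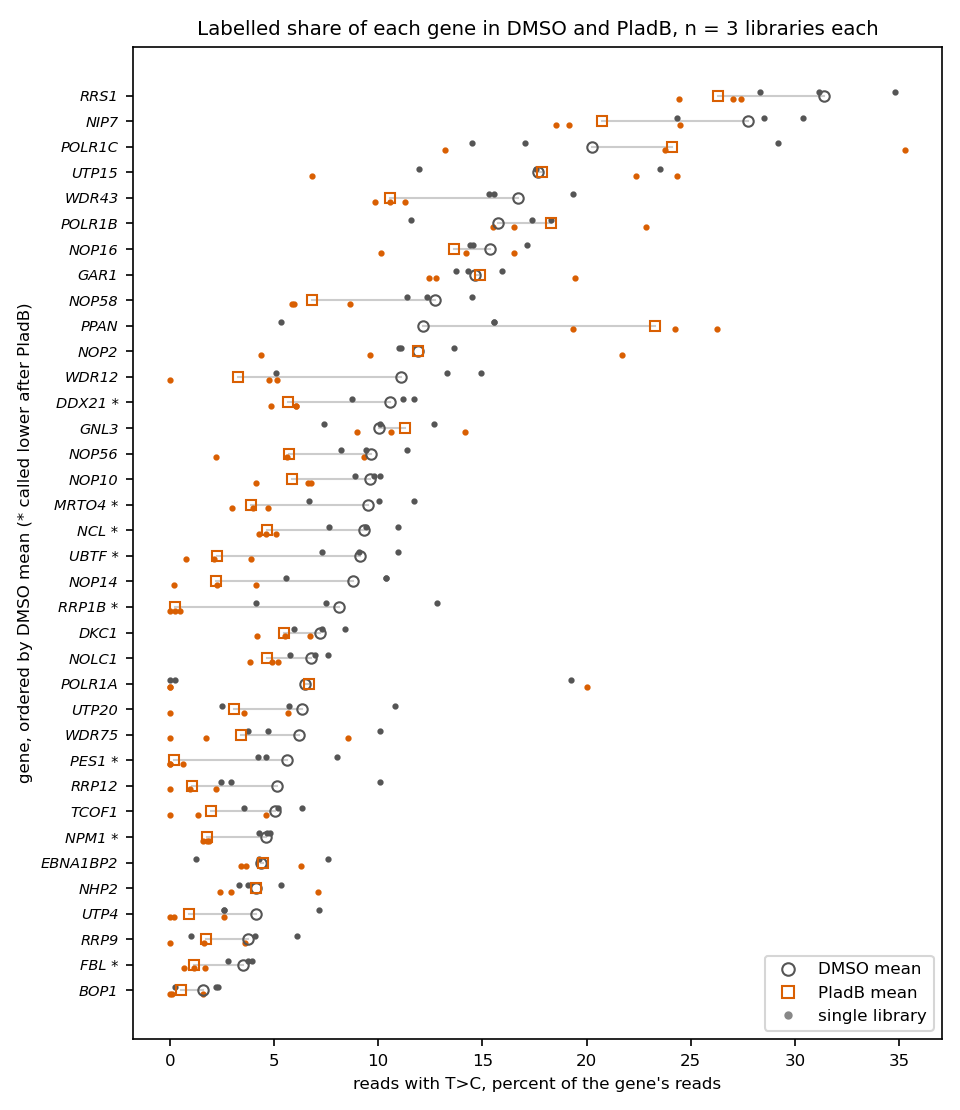
Labelled share in percent (x axis) of each of the 36 genes (y axis, ordered by the DMSO mean) in DMSO (circles) and PladB (squares), with single libraries as small points, n = 3 each; an asterisk marks the 8 genes called lower. RRP1B and PES1 sit near 0 after PladB. The PladB points of POLR1C, POLR1A, NOP2 and UTP15 are widely spread, and so are the DMSO points of POLR1A.

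Of the genes whose total RNA fell, UBTF and RRP1B were called lower in the labelled share. No change of the share was called in the others. POLR1C, with a total RNA change of -1.59, had a labelled share of 13.2%, 35.3% and 23.8% after PladB against 14.5%, 17.1% and 29.2% in DMSO (log2 odds 0.29, 95% interval -1.46 to 2.04). POLR1B had 15.5%, 16.5% and 22.9% against 11.6%, 18.3% and 17.4% (0.27, -0.92 to 1.45). PPAN had 19.4%, 26.3% and 24.2% against 15.6%, 5.33% and 15.5% (1.25, -0.75 to 3.25), all PladB libraries above all DMSO libraries. NOP2 spread from 4.38% to 21.7% after PladB (-0.26, -1.63 to 1.11). These intervals are wide, and none of the 4 differences passed the test. Some other genes without a call had lower mean shares after PladB. WDR43 had 10.6%, 11.3% and 9.87% against 19.3%, 15.5% and 15.3% in DMSO, without overlap. UTP4 had 0%, 0.220% and 2.60% against 2.61%, 2.60% and 7.16%. WDR75 had 8.54%, 0% and 1.74% against 10.1%, 4.70% and 3.75%. The groups overlapped in WDR75, POLR1A, GNL3 and NOP16.

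The 36 genes have many exons, with a median of 15 and a range from 1 (RRS1) to 62 (UTP20), against a median of 9 over all genes. Across the 36 genes, exon number ran against the PladB change with a Spearman correlation of -0.74 in T>C reads, -0.45 in all reads and -0.42 in the labelled share. Over 9363 genes the correlation in T>C reads was -0.22, and over 9820 genes it was -0.26 in all reads and -0.10 in the share. Genes are not independent replicates, all points share the same 6 libraries, and exon number also ran with T>C depth over the 36 genes (correlation with mean T>C reads -0.58). The genes with few exons included RRS1, NOP10 (2), NHP2 (4), NIP7 (5) and NOP16 (6), all with T>C changes above 0 when scaled to T>C reads; scaled to all reads, NOP10 and NOP16 were below 0. In the 15 genes with 13 to 17 exons the median T>C change was -0.27, against -0.52 over the 1427 genes tested with as many exons. In T>C reads scaled to T>C reads, the median of the described genes was above that of all genes tested in every bin up to 17 exons. In the bins beyond it was below, at -1.22 against -0.81 for 18 to 25 exons and -1.21 against -0.87 for 26 or more. In all reads it was above that of all genes only in the bins of 1 and of 4 to 5 exons. It was below in every other bin, at -0.21 against -0.15 for 13 to 17 exons and -0.83 against -0.29 for 18 to 25.

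**Figure D4:**
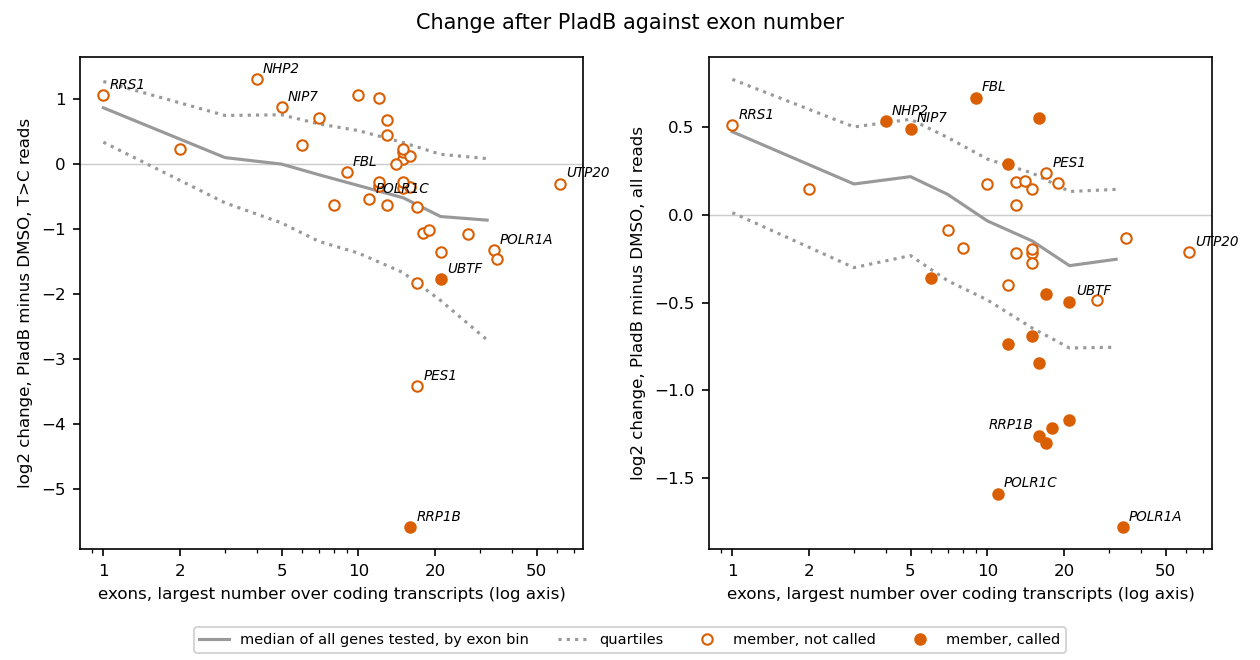
PladB log2 change in T>C reads (left) and all reads (right) against the largest number of exons in a coding transcript (log axis); points are the 36 genes, filled where called, the grey line the median of all genes tested in bins of exon number and the dotted lines their quartiles. The 4 genes with 1 to 5 exons lie above 0 in both panels (NOP10 is below 0 in T>C reads scaled to all reads), and the called genes that fell in all reads have 6 to 34 exons.

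A second shared feature was the hosting of snoRNA genes in introns. By gene models of GENCODE release 29, 7 of the 36 genes (19.4%) host 25 snoRNA genes in all, against 184 of 9821 genes (1.87%). The hosts were NOP56 with 5, NOP58 with 4, DKC1 with 2, NCL with 3, WDR43 with 3, PPAN with 2 and GNL3 with 6. Of these 7 hosts 3 fell in total RNA after PladB (WDR43, PPAN and GNL3) and 4 were not called. Of all 36 genes 12 were called lower and 5 higher, and of all genes tested 16.3% and 13.9%. The PPAN call was lost without some single libraries, and 69.4% of GNL3 reads mapped to more than 1 place. A link between hosting and the change was not tested. No host rose.

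The stereoprobes were compared at the same dose and time, each with DMSO and with each other, for all 36 genes. No gene was called in total RNA, in T>C reads or in the labelled share, in any of these 3 comparisons. Over all genes, 0.698% were called in total RNA for WX-02-23 against DMSO, 0.167% for WX-02-43 against DMSO and 0.152% between the 2 probes. In T>C reads these were 0.224%, 0.0933% and 0.0466%, and in the share 0.00998%, 0% and 0%. At an unadjusted p under 0.05 the edgeR test gave 8, 6 and 1 of the 36 genes in total RNA, where it gave 8.7%, 5.86% and 5.51% of all genes. In T>C reads and the share it gave none of the 36, where it gave 2.85% to 4.54% of all genes. DESeq2 called none of the 36 in reads of either kind.

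The median change of total RNA over the 36 genes was -0.03 after WX-02-23 and -0.05 after WX-02-43. The lowest adjusted p after WX-02-23 was that of BOP1 (log2 0.52, 95% interval 0.19 to 0.85, adjusted p = 0.17), and after WX-02-43 that of TCOF1 (-0.61, -1.10 to -0.13, adjusted p = 0.70). FBL stood at 574, 425 and 505 CPM after WX-02-23 and at 532, 411 and 468 CPM after WX-02-43, overlapping DMSO in both cases. UBTF stood at 111, 128 and 123 CPM and at 100.0, 124 and 130 CPM, below all DMSO libraries after either probe, with changes of -0.27 (95% interval -0.53 to 0.00, adjusted p = 0.58) and -0.30 (-0.56 to -0.03, adjusted p = 0.82). NPM1 stood at 697, 796 and 735 CPM after WX-02-23 (-0.24, -0.41 to -0.08, adjusted p = 0.22) and at 784, 755 and 813 CPM after WX-02-43 (-0.17, -0.33 to -0.00, adjusted p = 0.85), where PladB gave a rise.

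Between the probes the difference (WX-02-23 minus WX-02-43) had a median of 0.05 over the 36 genes in total RNA, and the 95% intervals of single genes reached from -1.26 to 0.86. NPM1 differed by -0.08 (-0.24 to 0.09), FBL by 0.09 (-0.11 to 0.30), DDX21 by 0.04 (-0.15 to 0.24) and DKC1 by -0.02 (-0.24 to 0.19), so differences beyond about these bounds lie outside their intervals. NIP7 had the lowest adjusted p, at a difference of 0.47 (0.13 to 0.82, adjusted p = 0.64), with 66.9, 96.2 and 67.0 CPM after WX-02-23 and 55.6, 60.1 and 49.8 CPM after WX-02-43. POLR1A had the largest difference, -0.48, and the widest interval, -1.26 to 0.30 (adjusted p = 1), at 13.7, 18.9 and 15.0 CPM against 20.8, 23.4 and 21.9 CPM. A missed threshold does not show that the probes act alike on these genes.

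The 36 genes together took 0.533% ± 0.00738 of coding reads in DMSO, 0.528% ± 0.022 after WX-02-23, 0.515% ± 0.00596 after WX-02-43 and 0.466% ± 0.00105 after PladB (SD, n = 3). Of T>C reads they took 0.466% ± 0.0141, 0.449% ± 0.0561, 0.435% ± 0.0316 and 0.392% ± 0.0249. PladB libraries ran from 0.466% to 0.467% of coding reads, below the lowest DMSO library at 0.527%. These are shares of raw reads, without the TMM adjustment that levels in CPM carry. For all reads the TMM factors were 1.06, 1.02 and 1.03 in DMSO libraries and 0.865, 0.872 and 0.872 in PladB libraries. Levels in CPM are divided by these factors, so the lower share after PladB is not a lower summed level in CPM. The sums carry no test, because the genes were chosen with results known. Without NPM1 and NCL the sum was 0.387% in DMSO and 0.320% after PladB.

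The rest of the pathway, 124 other genes of which 123 were tested in total RNA, gave 13 higher and 39 lower after PladB, with a median of -0.36. Among other RNA polymerase I genes 1 rose and 5 fell of 12, with RRN3, the initiation factor that links the polymerase to its promoter, at -1.39 (SE 0.19, adjusted p = 3.3e-07). Of 50 other small subunit genes 2 rose and 16 fell, of 51 other 60S genes 6 rose and 15 fell, and of 10 other snoRNP genes 4 rose and 3 fell. In T>C reads 2 of 122 rose and 2 fell. UTP3 (1.56, SE 0.31, adjusted p = 0.00053) and IMP3 (0.66, SE 0.20, adjusted p = 0.028), both of the small subunit processome, rose; scaled to all reads neither was called, with UTP3 at 0.77 (adjusted p = 0.092) and IMP3 reversed at -0.14 (adjusted p = 0.68). EMG1, an rRNA methyltransferase, fell by 1.96 (SE 0.50, adjusted p = 0.0066), and DDX31, a helicase, had 38, 5 and 29 T>C reads in DMSO and 0 in every PladB library, at least 3.90-fold lower against a floor of 3 counts per library. After either stereoprobe no gene of this list was called in total RNA or T>C reads; in total RNA 9 genes after WX-02-23 and 4 after WX-02-43 had an unadjusted p under 0.05.

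The ribosomal protein genes, which supply the protein parts of the ribosome, went the other way in total RNA: 76 of 80 rose after PladB and none fell, with a median of 0.56 and RPS3 at 1.02 (SE 0.09, adjusted p = 8.6e-12). In T>C reads scaled to T>C reads 31 of 80 rose, with a median of 0.68, but scaled to all reads 10 rose and the median was -0.11. Their labelled share fell in 35 of 80 and rose in none, with a median of -0.74 in log2 odds. Of 34 translation initiation factor genes 13 rose and 3 fell in total RNA, with EIF4B at 0.54 (SE 0.08, adjusted p = 1.4e-06). MYC itself rose in total RNA, from 120 ± 19.7 to 256 ± 12.1 CPM (log2 1.09, SE 0.13, adjusted p = 1e-08), and in T>C reads by 1.08 (SE 0.15, adjusted p = 1e-06), which scaled to all reads was 0.28 and not called (adjusted p = 0.19). Of the 12 MYC network genes 4 rose and 7 fell, with MLXIP at -1.01 (adjusted p = 6e-09). A difference between these lists and the 36 genes was not tested.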

How the data were processed

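Per the file headers, the authors counted reads over 3′ UTR intervals with slamdunk 0.4.3; the submitters' processing notes name hg19. Deposited values are read counts, T>C read counts and multimapping counts per interval, CPM, and a conversion rate that is a fraction of covered T positions. Counts alone entered the tests. Of 29255 intervals the 23086 of coding transcripts were used; overlapping intervals of a gene were counted once, 44 of 45 date-altered names were restored from transcript accessions, and 24 copies on chromosome Y were left out. Background T>C reads were not subtracted, since no unlabelled library was analysed here.

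edgeR 4.0.16 (R 4.3.3; quasi-likelihood, TMM, filterByExpr) was fitted to all 12 libraries by group. The labelled share was tested on paired counts of T>C and other reads with a term per library, for genes with at least 20 reads in every library. DESeq2 1.42.0 and limma 3.58.1 served as alternatives. Scripts were tested on simulated data. Named genes were up to 8 called genes of lowest adjusted p per comparison and the gene with most CPM per role. Other genes of the 36 were named to account for all; RRN3 and the total RNA of MYC were picked after their values were seen. The genes and lists were chosen with earlier results of these data known. Exon numbers and snoRNA hosts came from GENCODE release 29 by gene name.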

Additional observations from a re-analysis of the deposited data

Results flagged for a closer look

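Outside the coding 3′ UTR interval, the files hold a noncoding transcript row over the UBTF gene body with 25474 reads in the 12 libraries, a signal in data that no comparison used. It held 47.0% to 54.5% of UBTF reads in DMSO and 43.4% to 51.3% after PladB. Its level was 145 ± 17.8 CPM in DMSO and 92.4 ± 7.20 CPM after PladB, and its labelled share, pooled per group, was 11.2% and 2.31%, beside 9.16% and 2.20% in the coding interval. A like row over NOP16 held 2807 reads, at 13.2 ± 3.97 CPM in DMSO and 12.9 ± 3.71 CPM after PladB.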

How the results depend on the processing

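The count of genes called in T>C reads after PladB, 2 of 36, was 6 with DESeq2 (adding NIP7, PES1, RRS1 and WDR43), 1 with only the 2 groups compared and 10 with scaling to all reads, and 1 to 2 without single libraries. The count for the labelled share, 8, was 5 with limma on log2 odds, 3 with limma and a replicate block, and 6 to 9 without single libraries. The count for all reads, 17, was 14 to 16 without single libraries, and 17 with the replicate block, which added NOP56 and lost NOP16. It was 14 with only the 2 groups compared, which lost NOP16, PPAN and UTP4. With DESeq2 it was 17, with RRS1 added and UTP4 lost. In T>C reads the replicate block left 2. The labels do not say whether libraries with the same replicate number were handled together. Correlations of deviations between same-numbered libraries ran from -0.0572 to 0.0311. No shared replicate effect was seen in them, but they cannot show how the libraries were handled. Without the 4 genes over 20% multimapping reads, a check chosen after seeing the data, the counts were 14, 2 and 7. The 0 calls among the 36 genes for either stereoprobe held under every alternative run. No called gene of the 36 reversed; of other named genes IMP3 did, in T>C reads scaled to all reads (-0.14).

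Differences from DMSO in the share of coding reads, in percentage points, ranged without single libraries from -0.0176 to 0.00252 for WX-02-23, from -0.0219 to -0.0144 for WX-02-43 and from -0.0704 to -0.0632 for PladB. For T>C reads they ranged from -0.0487 to 0.00284, from -0.0433 to -0.0130 and from -0.0847 to -0.0605. Without NPM1 and NCL they were 0.0102 and -0.00308 of coding reads for WX-02-23 and WX-02-43, and -0.00794 and -0.0513 of T>C reads for WX-02-43 and PladB. The sign for WX-02-23 in coding reads thus turned. Its mean was 0.528% against 0.533% in DMSO with all 36 genes, and 0.397% against 0.387% without NPM1 and NCL. These shares carry no TMM adjustment, and the cause of the shifts was not tested.

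Over all genes, T>C calls after PladB were 506 higher and 633 lower, against 688 and 1292 with DESeq2, 323 and 170 with only the 2 groups, and 85 and 1750 scaled to all reads. Calls in the share were 3 and 1185, against 5 and 754 with limma and the replicate block, and 648 lower at fewest without single libraries. For WX-02-23 in all reads they were 56 and 36, against 82 and 79 with DESeq2 and 42 and 14 with only the 2 groups; for WX-02-43 they were 13 and 9, against 24 and 31 with DESeq2. T>C depth limits the new RNA results, where intervals are wide, and no molecular identifiers are given in the sources used here.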
